A study of Oryza sativa with 6 samples.

Results

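Rice roots of the *OsMYB305*-overexpressing line OE15 were compared with roots of the wild type (WT) under low nitrogen, using the 2 OE15 and the 2 WT libraries among the 6 RNA-seq libraries of the series. The other 2 libraries come from OE20, a second overexpressing line, and serve here to show how far OE15 went beyond it. A locus entered the comparison when its FPKM, the number of fragments scaled to transcript length and sequencing depth, averaged 1 or more across the 6 libraries, which held for 20627 of the 55982 loci. OE15 and OE20 carry the *OsMYB305* coding sequence behind the constitutive CaMV 35S promoter in the background of cultivar ZH11, and the lines were screened with hygromycin in each generation. The WT is ZH11. Roots of all 3 genotypes were grown for 14 days with 0.288 mM NH4NO3, the low nitrogen supply of the study. The sample labels name an MS solution, whereas the study's methods describe Yoshida solution for hydroponic culture. OE15 is a single transgenic line, so what belongs to *OsMYB305* and what belongs to that line cannot be told apart in it.

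OsMYB305 is an R2R3-MYB transcription factor, a member of the large plant family whose proteins bind DNA through a pair of MYB repeats and control, among other things, phenylpropanoid metabolism and the secondary cell wall. Roots take up nitrate at low supply mainly through NRT2 transporters, which need the partner protein NAR2 to work at the plasma membrane. Nitrate is then reduced to nitrite and, by nitrite reductase, to ammonium. The secondary wall of xylem and fibre cells is built from cellulose, made by the CESA4, CESA7 and CESA9 synthase complex in rice, from hemicellulose and from lignin, whose monomers are coupled by laccases and peroxidases.

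WT replicate 2 was the deepest library. FPKM keeps no read totals, but the steps between the lowest values gave relative depths of 1.02 and 1.04 for the OE15 libraries, 1.08 and 0.984 for the OE20 libraries and 1 and 1.36 for the WT libraries. Each library listed 46.4% to 47.8% of its loci at 0. Of the 3 root nitrate uptake markers, *OsNRT2.1*, *OsNRT2.2* and *OsNAR2.1*, the summed level was 149 and 145 FPKM in OE15, 146 and 144 FPKM in OE20 and 100.2 and 106 FPKM in WT. A list of 4 green tissue markers, taken from annotations of loci that the authors chose on these libraries, summed to 62.9 and 63.4 FPKM in OE15, 59.8 and 59.9 FPKM in OE20 and 86.2 and 86.8 FPKM in WT. The photosystem II 10 kDa polypeptide (log2 change -1.05) and protochlorophyllide reductase A (-0.65) fell in OE15, PsbP rose (0.71), and the small subunit of Rubisco had a change of -0.38, under the 1.5-fold limit. None of the 4 was at 0 in any library. The part of green tissue in the results that follow was not tested.

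The overexpressed gene was checked first. *OsMYB305* (LOC_Os01g45090), which lies on chromosome 1, reached 150.2 and 148 FPKM in OE15, 81.3 and 80.2 FPKM in OE20 and 0.0388 and 0.0576 FPKM in WT, so each library carries the level its label implies. OE15 held more of the transcript than OE20, by 0.89 on the log2 scale (adjusted p = 0.000886 by limma), the scale being log2(FPKM + 0.1) here and throughout. Under quantile normalization the difference was 0.91, with a larger standard error of 0.247 against 0.0727, and did not pass (adjusted p = 0.0588).

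OE15 differed from WT at 1134 of the 20627 loci tested (5.5%), 535 lower (2.59%) and 599 higher (2.9%), where a locus was called at an adjusted p under 0.05 by limma and a change above 1.5-fold. In OE20, 641 loci were called against the same WT libraries (3.11%), 339 lower (1.64%) and 302 higher (1.46%). Most changes in OE15 were modest. Up to 2-fold changes made up 344 of the lower and 403 of the higher loci, and changes of more than 8-fold 22 and 24. The median change was -0.85 among the lower and 0.83 among the higher loci, beside 0.02 over all loci tested. Which direction held more loci depended on the scaling between libraries, with 52.8% of the calls higher as deposited, 48.8% under quantile normalization and 49.3% under median-ratio scaling. With 2 libraries a genotype, and no statement that they came from separate plants, p-values measure only the spread between these libraries. In bulk tissue, fewer cells of a type and less RNA per cell cannot be told apart.

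Calls thinned out with rising expression level. Below a mean of 5 FPKM over the 4 libraries, 535 of 6315 loci were called (8.47%), against 4.62% between 5 and 20 FPKM, 3.65% between 20 and 100 FPKM and 3.71% of the 1214 loci over 100 FPKM. Among the called loci, the median changes were -0.92 and 0.90 in the lowest class and -0.85 and 0.79 in the highest. Since a call needs more than 1.5-fold, these medians cannot show how the size of change depends on level.

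**Figure D1:**
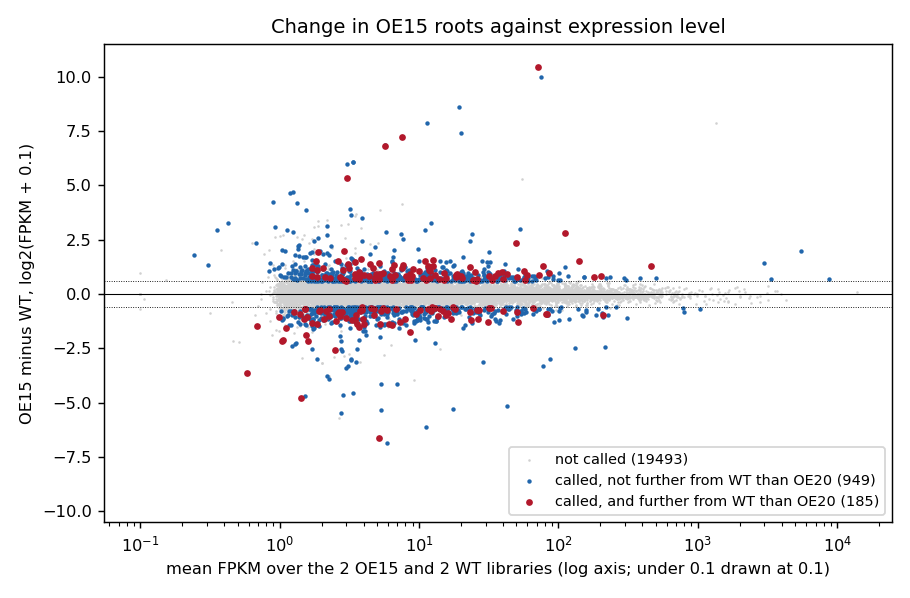
Each point is 1 of the 20627 loci, with its mean FPKM over the 2 OE15 and 2 WT libraries on a log axis and OE15 minus WT on the log2(FPKM + 0.1) scale; dotted lines mark 1.5-fold. The 185 loci in red, labelled as further from WT than OE20, were called in OE15 against WT and against OE20 in one direction. They were not called in that direction in OE20, and at some of them OE20 lay further from WT on the other side. The red loci lie in both directions and mostly below 100 FPKM, with 6 above it.

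The nitrate uptake genes examined here, *OsNRT2.1*, *OsNRT2.2* and *OsNAR2.1*, were higher in OE15, the last by less than 1.5-fold. *OsNRT2.1* (LOC_Os02g02170, chromosome 2), a high-affinity nitrate transporter, was at 9.90 and 9.20 FPKM in OE15, 8.10 and 7.75 FPKM in OE20 and 5.81 and 6.07 FPKM in WT. Both OE15 libraries lay above all OE20 and WT libraries, and the change from WT was 0.68 (standard error 0.0744, adjusted p = 0.00115 by limma). The same holds for *OsNRT2.2* (LOC_Os02g02190), its near-identical neighbour, at 13.5 and 13.2 FPKM in OE15, 11.3 and 11.3 FPKM in OE20 and 8.29 and 8.95 FPKM in WT, a change of 0.62 (adjusted p = 0.00079). The change of *OsNRT2.2* was 0.57 without WT replicate 1 and 0.58 with a pseudocount of 1, both below the 1.5-fold limit. How reads shared by the 2 copies were assigned is not stated, so their values are not independent. In OE20 both genes had smaller changes from WT, 0.41 and 0.39, under the 1.5-fold limit, but OE15 and OE20 were not separated (differences of 0.26 and 0.24, adjusted p = 0.0661 and 0.0573).

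*OsNAR2.1* (LOC_Os02g38230), the partner protein of the NRT2 transporters, was the most abundant of the uptake genes, at 126 and 123 FPKM in OE15, 127 and 125 FPKM in OE20 and 86.1 and 91.4 FPKM in WT. It stood at the same level in both lines, with a change of 0.49 in OE15 (adjusted p = 0.00029), less than 1.5-fold. *OsNIR2* (LOC_Os01g25484, chromosome 1), nitrite reductase, was at 881 and 866 FPKM in OE15, 821 and 858 FPKM in OE20 and 791 and 918 FPKM in WT. Its OE15 values fell inside the range of the 2 WT libraries and did not differ from them by the test (0.04, adjusted p = 0.74), and the sign turned to -0.071 without WT replicate 1.

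Of the 13 secondary wall genes listed by the study, 9 were lower and 2 higher in OE15, and 2 had changes below 1.5-fold. The median change of the 13 was -0.79. Of the 9, *OsCSLE6* did not keep its call without OE15 replicate 2 or without WT replicate 1, at changes of -0.80 and -0.87. All 13 are among the loci that the study picked for a change in these same libraries, so their direction is not independent evidence. *OsCSLF8* (LOC_Os07g36630, chromosome 7), of a family that makes mixed-linkage glucan, had the largest fall of the 13, with 1.80 and 1.84 FPKM in OE15, 2.72 and 2.61 FPKM in OE20 and 4.78 and 4.21 FPKM in WT (-1.26, adjusted p = 0.000644 by limma). *OsBC1* (LOC_Os03g30250, chromosome 3), the COBRA-like protein of brittle culm, needed for cellulose in the thickened wall, was at 17.4 and 16.7 FPKM in OE15, 22.4 and 21.1 FPKM in OE20 and 30.1 and 30.5 FPKM in WT (-0.83, adjusted p = 9.66e-05). In each case the 3 genotypes did not overlap and OE20 lay between OE15 and WT. In OE20, 5 of the 13 were called lower and none higher. Limma put OE15 below OE20 at an adjusted p under 0.05 for *OsCESA4* (-0.22), *OsCESA7* (-0.23), *OsBC1* (-0.35) and *OsCSLF8* (-0.53), all differences of less than 1.5-fold.

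The 2 wall genes that rose in OE15 both encode MYB factors. *OsMYB31* (LOC_Os09g36730, chromosome 9) was at 78.7 and 76.7 FPKM in OE15, 72.4 and 70.5 FPKM in OE20 and 51.7 and 50.1 FPKM in WT (0.61, adjusted p = 9.66e-05). *OsMYB48* (LOC_Os01g74410, chromosome 1) was more abundant than any other MYB gene in the lists, at 381 and 359 FPKM in OE15, 282 and 317 FPKM in OE20 and 196 and 245 FPKM in WT. The OE15 libraries stood above all others, 0.75 above WT (standard error 0.103, adjusted p = 0.00301), while the difference from OE20 did not pass the test (0.31, adjusted p = 0.108).

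**Figure D2:**
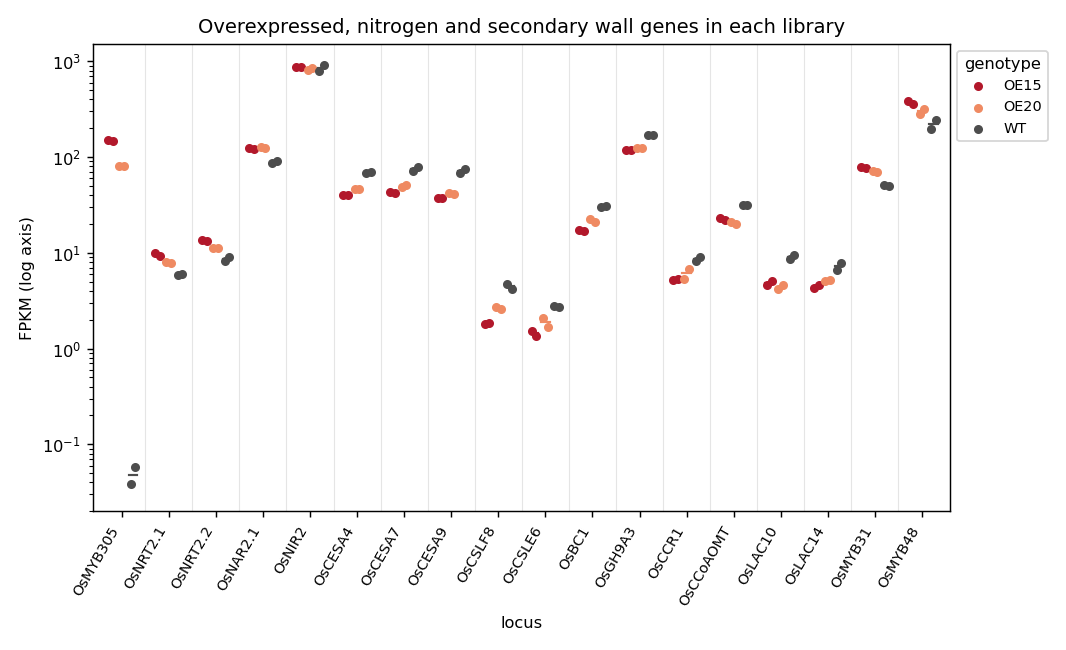
Points are FPKM of single libraries on a log axis and short lines the mean of 2, for OE15, OE20 and WT from left to right within each gene. The wall genes from *OsCESA4* to *OsLAC14* are lower in both lines than in WT, *OsMYB31* and *OsMYB48* are higher, and *OsNIR2* overlaps among genotypes.

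Annotations were at hand for 462 loci, those that the authors selected on these libraries for a change in both lines, and 395 of the 449 that could be tested were called in OE15. They were sorted into 20 groups by the words of their annotation. The direction of each group follows from that selection and is not independent evidence. All counts below are of called loci, to be read beside the 395 of 449 called among the annotated loci. The 5.5% over all loci is not the share of this selection. Because the selection asked for a change in both lines, the size in OE15 and the distance from OE20 are not free of it either. Both are given as a description.

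The 3 largest falls among the annotated groups in OE15 belonged to the ubiquitin pathway, in which ubiquitin is joined to proteins that the proteasome then degrades. Of 17 members tested, 9 were lower and 4 higher, and their summed level was 120.4 to 125 FPKM in OE15 against 364 to 371 FPKM in WT. A ubiquitin fusion protein (LOC_Os09g27930, chromosome 9) was at 0.642 and 0.909 FPKM in OE15, 1.06 and 1.21 FPKM in OE20 and 34.9 and 33.5 FPKM in WT, 44.1-fold lower in OE15 by the means. The other ubiquitin fusion protein, LOC_Os03g15370 on chromosome 3, was at 2.30 and 2.19 FPKM in OE15, 4.02 and 4.12 FPKM in OE20 and 86.8 and 79.9 FPKM in WT. All but a few percent of the WT level of both was gone in both lines, and for LOC_Os03g15370 OE15 went lower still than OE20 (-0.83, adjusted p = 0.00102 by limma). The ubiquitin family protein LOC_Os09g31031 separated the lines most, with 19.6 and 19.6 FPKM in OE15, 46.0 and 50.3 FPKM in OE20 and 156 and 154 FPKM in WT (OE15 minus WT -2.98, adjusted p = 2.56e-07, and OE15 minus OE20 -1.29, adjusted p = 4.31e-05). SKP1-like protein 1B (LOC_Os07g43260), a subunit of SCF ubiquitin ligases, fell by 4.15 on the log2 scale. The rises were led by LOC_Os10g41838, an F-box interaction domain protein, at 10.7 and 9.87 FPKM in OE15, 10.1 and 9.83 FPKM in OE20 and 1.501 and 1.22 FPKM in WT, with no difference between the lines that the test could find (0.05, adjusted p = 0.827). Ubiquitin genes hold near-identical coding repeats, and how reads that map to several loci were shared is not stated.

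Thionins, small antimicrobial peptides rich in cysteine, were lower in OE15 with 1 exception. Of 6 members, 5 were lower and 1 higher in OE15, and in OE20 2 were lower and none higher. *THION3* (LOC_Os06g31890, chromosome 6) was at 571 and 587 FPKM in OE15, 781 and 745 FPKM in OE20 and 1027 and 1007 FPKM in WT (-0.81, adjusted p = 2.50e-05), and OE15 was lower than OE20 by a difference of -0.40 (adjusted p = 0.00111). *THION6*, *THION7* and *THION9*, its neighbours on chromosome 6, had OE15 changes of -1.10, -1.07 and -0.96 and differences from OE20 of -0.54, -0.43 and -0.38, each with an adjusted p under 0.05 and each below 1.5-fold. These 4 copies, of which *THION9* was chosen after its values were seen, lie close together and may share reads. The thionin-like peptide LOC_Os07g25050 went the other way. It was the most abundant called locus, at 11107 and 10523 FPKM in OE15, 9765 and 9048 FPKM in OE20 and 6497 and 6919 FPKM in WT (0.69, adjusted p = 0.000264). It ranked 2 by FPKM in each of the 6 libraries, so quantile normalization, which sets values by rank, gives it no change by construction.

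Among the enzyme groups, all 8 glutathione S-transferases were lower in OE15, with a median of -0.93 and a summed level of 200.5 to 208 FPKM in OE15 against 357 to 359 FPKM in WT. LOC_Os09g20220 had the largest change, at 0.958 and 1.01 FPKM in OE15, 1.48 and 1.53 FPKM in OE20 and 6.23 and 6.27 FPKM in WT (-2.55, adjusted p = 5.37e-05). In 1 of the 8, LOC_Os03g17480, the call was lost when OE15 replicate 1 or either WT library was left out (-1.46 to -1.02, adjusted p = 0.0841 to 0.129), with no minimum FPKM and with no trend. Of 8 class III peroxidases, which oxidise phenolics in the wall, 6 were lower and 1 higher, and the higher one, LOC_Os06g35480, was at 115 and 108 FPKM in OE15 against 54.3 and 52.6 FPKM in WT. O-methyltransferases had 3 of 4 members lower and none higher. Of 11 glycosyltransferases that use UDP-sugars, 9 were lower and 2 higher, the lowest being LOC_Os04g12970 at 0.121 and 0.334 FPKM in OE15 against 4.08 and 4.25 FPKM in WT (-3.78, adjusted p = 0.00158). Cytochromes P450, a large family of oxygenases, were mixed, with 10 lower and 7 higher of 19. The P450 members ranged from LOC_Os06g24180, annotated as cytochrome P450 84A1, at -1.70 and chosen after its value was seen, to LOC_Os06g39780 at 2.26.

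Of 5 dirigent proteins, which guide the coupling of phenolic radicals, 4 were called lower in OE15, and all 5 glycine-rich wall proteins, which lie near each other on chromosome 10, were lower with a median of -1.18. LOC_Os10g18820, a dirigent protein, was at 66.1 and 67.4 FPKM in OE15, 79.0 and 72.1 FPKM in OE20 and 375 and 351 FPKM in WT (-2.44, adjusted p = 8.66e-07). The dirigent locus LOC_Os10g18760 was an exception to the order of the lines, with 199.8 and 207 FPKM in OE15, 113 and 109 FPKM in OE20 and 286 and 271 FPKM in WT. There OE15 had changed by -0.45, under the 1.5-fold limit, and OE20 by -1.32, and the lines differed by 0.87 (adjusted p = 0.000108). OE20 also moved further at the cupin LOC_Os08g08960 (OE15 -0.50, OE20 -1.10) and the kinase LOC_Os11g31540 (OE15 -0.62, OE20 -1.58). The kinase, chosen after its values were seen, is annotated as associated with BRASSINOSTEROID INSENSITIVE 1. Among annotated loci called in OE15 against WT, OE20 moved 3 further and OE15 24, by the test between the lines. LOC_Os10g18760 and LOC_Os08g08960 were not called in OE15 and lie outside these counts. The test between the lines called 425 of all loci (2.06%).

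Transcription factors of the AP2 and DREB type, many of which act in stress and ethylene responses, were all higher in OE15, 6 of 6, while 3 of 6 were called in OE20. LOC_Os03g08500 was the most abundant, at 189.7 and 194 FPKM in OE15, 159.9 and 171 FPKM in OE20 and 111 and 114 FPKM in WT (0.77, adjusted p = 6.05e-05). The dehydration-responsive element-binding protein LOC_Os09g35010 rose most, at 6.97 and 7.39 FPKM in OE15, 4.68 and 4.65 FPKM in OE20 and 0.706 and 0.426 FPKM in WT (3.48, adjusted p = 7.78e-05). OE15 exceeded OE20 in each of the 6, though none of these differences reached 1.5-fold together with an adjusted p under 0.05. Of 15 MYB, NAC, bHLH and WRKY factors, *OsMYB31* and *OsMYB48* included, 11 were higher and 4 lower in OE15, against 7 and 4 in OE20. *WRKY76* (LOC_Os09g25060), a WRKY factor of the defence response, was at 3.26 and 3.32 FPKM in OE15, 1.89 and 1.79 FPKM in OE20 and 0.854 and 0.818 FPKM in WT, a change of 1.86 that exceeded that of OE20 by 0.81 (adjusted p = 0.0181). The separation of *WRKY76* from OE20 was lost when any 1 of the 4 OE libraries was left out (adjusted p = 0.0743 to 0.105), with differences of 0.77 to 0.85 in those fits. *WRKY45* (LOC_Os05g25770), chosen after its values were seen, was at 18.5 and 19.4 FPKM in OE15, 13.2 and 14.3 FPKM in OE20 and 8.90 and 9.91 FPKM in WT (1.01, adjusted p = 0.00022).

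All 3 annotated ACC oxidases, which catalyse the last step of ethylene synthesis, were higher in OE15, led by LOC_Os05g05680 at 48.6 and 46.0 FPKM in OE15, 34.6 and 36.1 FPKM in OE20 and 16.5 and 17.5 FPKM in WT (1.47, adjusted p = 1.40e-05). Of 4 calcium sensors, 3 were higher and 1 lower. The EF hand protein LOC_Os06g46950 was at 60.3 and 58.3 FPKM in OE15, 41.2 and 37.1 FPKM in OE20 and 24.4 and 21.6 FPKM in WT, 0.60 above OE20 (adjusted p = 0.00419), and without OE15 replicate 1 or OE20 replicate 2 that difference, 0.57 or 0.52, was under the 1.5-fold limit. *RALFL28* (LOC_Os06g29730), a RALF peptide, of the secreted signals that raise the pH outside the cell, was at 42.8 and 40.6 FPKM in OE15, 18.9 and 18.9 FPKM in OE20 and 5.01 and 7.51 FPKM in WT, and *RALFL26* is described below. Of 13 receptor-like kinases, 8 were higher and 4 lower. The abundant cysteine-rich receptor-like kinase LOC_Os04g56430 was among the lower ones, at 791 and 775 FPKM in OE15, 782 and 766 FPKM in OE20 and 1262 and 1310.4 FPKM in WT (-0.72, adjusted p = 3.05e-05), with no difference between the lines that the test could find.

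Hormone and transport genes were divided. Of 11 loci for hormone transport and metabolism, 8 were lower and 3 higher. Among the lower ones was LOC_Os03g57640, annotated as gibberellin receptor GID1L2. It was at 0.635 and 0.648 FPKM in OE15, 1.07 and 1.29 FPKM in OE20 and 6.49 and 5.23 FPKM in WT (-3.00, adjusted p = 9.66e-05 by limma). Ion, nitrogen and metabolite transporters had 3 lower and 2 higher of 10. A nodulin MtN3 protein (LOC_Os01g42110), of the family that includes sugar exporters, was at 21.5 and 20.8 FPKM in OE15, 23.5 and 22.5 FPKM in OE20 and 56.8 and 49.8 FPKM in WT (-1.33, adjusted p = 5.06e-05). The aluminum-activated malate transporter LOC_Os04g47930, chosen after its values were seen, was at 41.7 and 42.1 FPKM in OE15, 29.5 and 32.3 FPKM in OE20 and 19.8 and 22.2 FPKM in WT. It rose in OE15 (0.995, adjusted p = 0.000166) and had a change of 0.56 in OE20, a difference between the lines of 0.44 (adjusted p = 0.01). Efflux transporters had 4 lower and 1 higher of 7, lipid transfer and lipase proteins 5 and 5 of 12, cupins 5 higher and none lower of 6, and 1 of 3 reticuline oxidase-like proteins was lower.

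**Figure D3:**
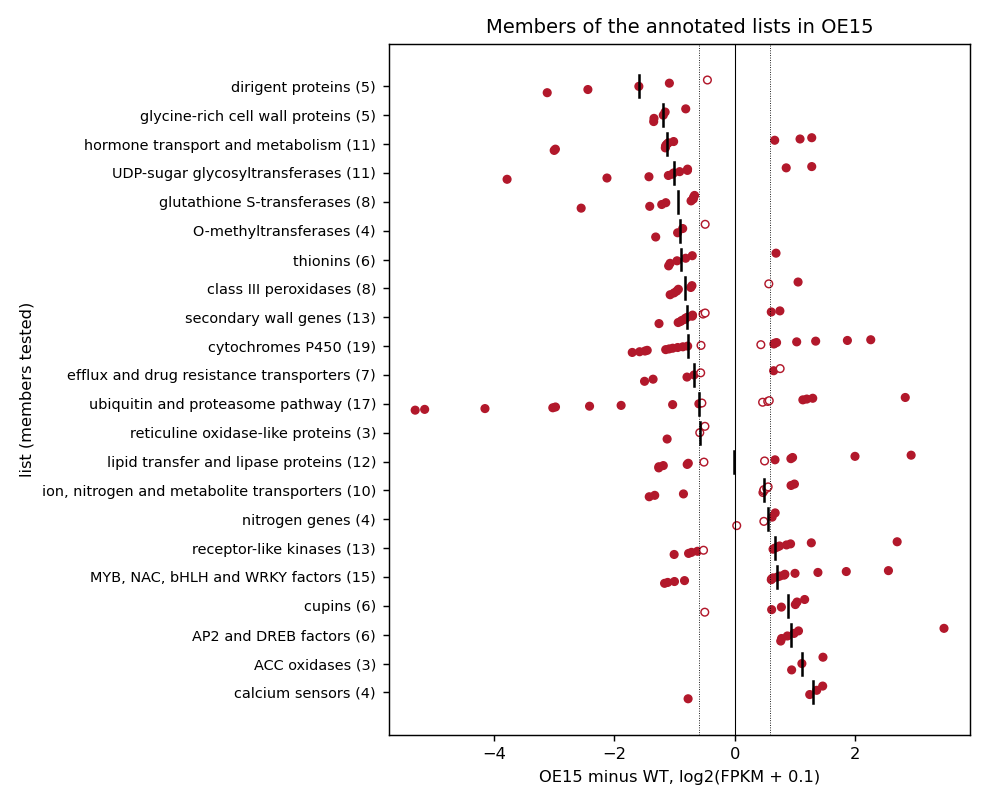
Each point is a member of a list, placed by OE15 minus WT on the log2(FPKM + 0.1) scale, filled where called and open where not, with black bars for list medians and dotted lines at 1.5-fold. Dirigent and glycine-rich wall proteins have the lowest medians (-1.59 and -1.18), ACC oxidases and calcium sensors the highest (1.12 and 1.31).

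At the highest expression levels, the annotated loci that rose in OE15 included a plastocyanin-like protein (LOC_Os11g24140), a copper-binding protein, at 8628 and 8948 FPKM in OE15, 8511 and 8460.4 FPKM in OE20 and 2234 and 2259 FPKM in WT. Its change of 1.97 (adjusted p = 3.18e-07) was matched in OE20 (1.92). The SCP-like extracellular protein LOC_Os10g11500 was at 4394 and 4330.4 FPKM in OE15, 3804 and 3600.0 FPKM in OE20 and 1591 and 1669 FPKM in WT (1.42, adjusted p = 4.60e-06). Among the abundant falls, the thiamine pyrophosphate enzyme LOC_Os05g39320 was at 157 and 151 FPKM in OE15, 204 and 206 FPKM in OE20 and 306 and 301 FPKM in WT (-0.98, adjusted p = 9.54e-06). The 3 genotypes were apart at LOC_Os05g39320, with OE15 below OE20 by a difference of -0.41 (adjusted p = 0.000743).

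Changes that OE20 did not reach were then set apart. Of the 1134 loci called in OE15, 435 were called in OE20 in the same direction and 699 were not. Missing the threshold in OE20 does not show a difference between the lines, and 626 of the 699 had a change of the same sign in OE20, 278 of 312 lower and 348 of 387 higher. When the difference between the lines was itself tested, 185 loci (0.897% of those tested) were called in OE15 against WT, not in OE20 in that direction, and in OE15 against OE20. They comprised 83 lower (0.402%) and 102 higher loci (0.494%). The other 514 were not separated from OE20. These contrasts share libraries, since OE15 enters both tests and WT serves both lines, so they are not independent of each other. The count of higher loci was 64 without OE15 replicate 2, and the count of lower loci 50 without OE20 replicate 1. Of the 185, 110 were kept without OE15 replicate 2 and 113 without OE20 replicate 1.

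The rule that chose the 185 loci requires a separation from OE20, so the OE20 values are given as a description. The median change of the lower loci was -0.97 in OE15 and -0.09 in OE20, and that of the higher loci 0.90 in OE15 and 0.05 in OE20. In OE20 the change was smaller than 0.2 on the log2 scale for 50 of the 83 and 57 of the 102 loci, and it had the opposite sign to that of OE15 for 32 and 38. The OE15 libraries lay outside all OE20 and WT libraries at every one of the 185. That is a property of the selection. For OE15 against WT alone, a looser measure, the libraries failed to overlap at 62.8% of all loci tested. More than 2-fold changes in OE15 were found for 38 lower and 40 higher loci, and more than 4-fold for 7 and 6.

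**Figure D4:**
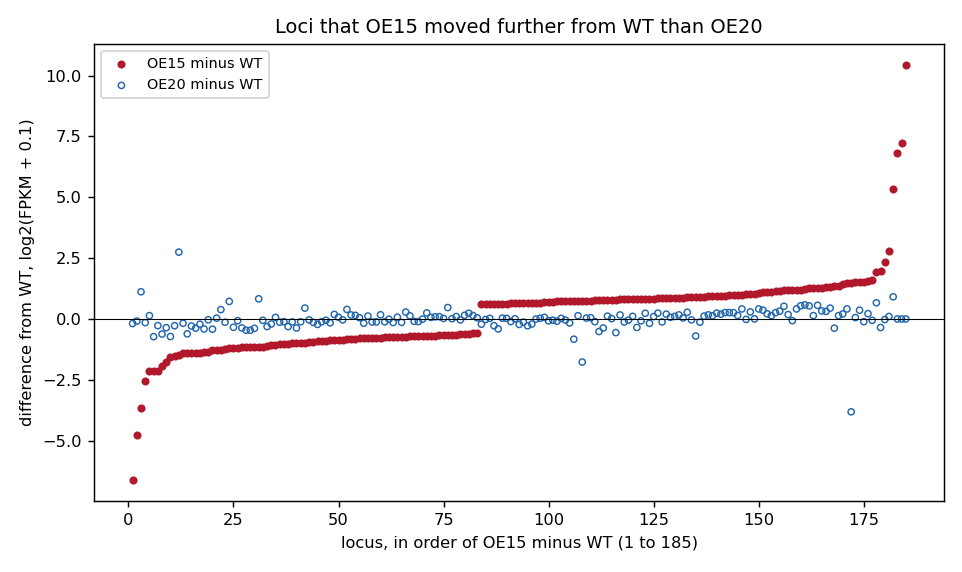
The 185 loci are ordered by OE15 minus WT (filled) with OE20 minus WT (open) at the same position, both on the log2(FPKM + 0.1) scale. The OE15 points form 2 arms with medians of -0.97 and 0.90, while the OE20 points have medians of -0.09 and 0.05, on the opposite side of 0 for 32 lower and 38 higher loci.

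Only 3 of the 185 loci were among the annotated ones, which the authors chose for a change in both lines. *RALFL26* (LOC_Os10g41980, chromosome 10), a RALF peptide, was the most abundant of all 185, at 634 and 674 FPKM in OE15, 409 and 384 FPKM in OE20 and 275 and 262 FPKM in WT. The 3 genotypes were clearly apart, with changes of 1.28 in OE15 (standard error 0.0468, adjusted p = 1.52e-05 by limma) and 0.56 in OE20, under 1.5-fold, and a difference of 0.72 between the lines (adjusted p = 0.000335). Cysteine synthase (LOC_Os04g08350, chromosome 4), which makes cysteine from O-acetylserine and sulfide, was at 16.3 and 16.1 FPKM in OE15, 27.7 and 25.1 FPKM in OE20 and 36.0 and 36.8 FPKM in WT. OE15 was below both other genotypes, with a change of -1.16 (adjusted p = 4.59e-05), against -0.46 in OE20, and the lines differed by -0.70 (adjusted p = 0.000852). The last, LOC_Os02g41840, chosen after its values were seen, encodes a protein of a domain of unknown function and had changes of 1.01 in OE15 and 0.41 in OE20.

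Another 30 loci were called in both lines and moved further in OE15, 9 lower and 21 higher, and 12 moved further in OE20. The annotated ones that moved further in OE15 were of mixed kinds, ubiquitin proteins and an EF hand protein among them, and no theme was tested. A protein with an NB-ARC domain, the nucleotide-binding part of many plant immune receptors (LOC_Os06g15750), was at 4.25 and 3.76 FPKM in OE15, 1.43 and 1.10 FPKM in OE20 and 0.390 and 0.343 FPKM in WT, 1.60 above OE20 (adjusted p = 0.00525). A NUDIX hydrolase (LOC_Os06g14420) was at 50.4 and 50.5 FPKM in OE15, 21.4 and 24.4 FPKM in OE20 and 11.8 and 14.5 FPKM in WT, 1.14 above OE20 (adjusted p = 0.00113). In both, the OE15 libraries were more than 2-fold above those of OE20 and further still above WT. Chitinase *CHIT16* (LOC_Os03g04060), of the enzymes that cut the chitin of fungal walls, was at 20.6 and 21.3 FPKM in OE15, 10.8 and 11.4 FPKM in OE20 and 7.53 and 6.94 FPKM in WT. Patatin (LOC_Os08g37210), a lipid acyl hydrolase, was at 43.9 and 40.6 FPKM in OE15, 24.9 and 23.5 FPKM in OE20 and 14.4 and 14.9 FPKM in WT. The steps from OE20 to OE15 were 0.91 and 0.80, larger than the steps from WT to OE20, which were 0.62 and 0.72. OE20 also lay between OE15 and WT at LOC_Os04g33240, annotated as the sex determination protein tasselseed-2 (13.0 and 13.5 FPKM in OE15, 6.87 and 6.19 FPKM in OE20, 1.88 and 2.53 FPKM in WT), at the lipid transfer protein *LTPL160* (LOC_Os10g36170, 20.8 and 18.1 FPKM in OE15, 9.44 and 10.4 FPKM in OE20, 1.84 and 3.25 FPKM in WT) and at LOC_Os01g35330, annotated as a circumsporozoite protein precursor (93.5 and 94.7 FPKM in OE15, 59.0 and 54.3 FPKM in OE20, 11.9 and 11.8 FPKM in WT).

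On the lower side, LOC_Os02g08330, annotated gp176, was at 0.664 and 0.5997 FPKM in OE15, 1.51 and 1.60 FPKM in OE20 and 6.09 and 6.74 FPKM in WT, and OE15 was below OE20 by a difference of -1.18 (adjusted p = 0.00464). A pyridoxal-dependent decarboxylase (LOC_Os04g01690) was at 2.91 and 2.41 FPKM in OE15, 4.18 and 4.63 FPKM in OE20 and 7.42 and 8.37 FPKM in WT. Several of these separations from OE20 lost their call in other fits. The separation at LOC_Os03g57640, annotated as gibberellin receptor GID1L2, was lost without any 1 library (differences of -0.90 to -0.66). This separation was also lost with the replicate block (adjusted p = 0.0614 by limma), and with a pseudocount of 1, no minimum FPKM or no trend. That of the F-box protein *OsFBX314* (LOC_Os09g15560) was lost without any 1 library (-0.72 to -0.46, adjusted p = 0.0528 to 0.181) and in the same 3 settings. Leaving out any 1 of the 4 OE libraries, no minimum FPKM or no trend lost the calls of *RALFL28* (LOC_Os06g29730) and *LTPL160* (LOC_Os10g36170). Their differences in the fits with a library left out stayed at 1.10 to 1.17 (adjusted p = 0.0518 to 0.0613) and 0.86 to 1.06 (adjusted p = 0.133 to 0.192), beside 1.14 and 0.96 with all libraries. LOC_Os04g01690 lost it without OE15 replicate 2 or either OE20 library (-0.78 to -0.58, adjusted p = 0.0647 to 0.0906), with no minimum FPKM and with a pseudocount of 1. LOC_Os04g33240 lost it without OE15 replicate 2 or OE20 replicate 2 (0.98 and 0.94, adjusted p = 0.0582 and 0.0530), and LOC_Os06g15750 without OE15 replicate 1 (1.51, adjusted p = 0.0521).

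**Figure D5:**
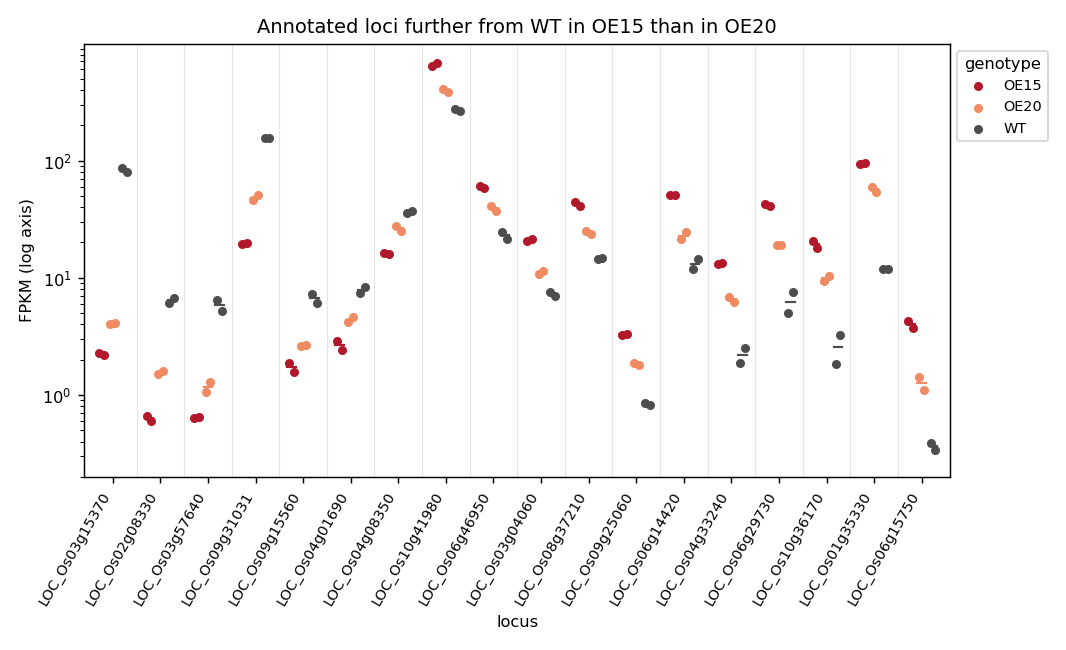
FPKM of single libraries on a log axis, with short lines for the mean of 2, at 18 annotated loci where OE15 differed from WT and from OE20 in one direction, OE15, OE20 and WT from left to right. OE20 lies between OE15 and WT at each locus, from LOC_Os03g15370, lower in OE15, to LOC_Os06g15750, higher in OE15.

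The remaining 182 of the 185 loci carry no annotation in the sources used here and are given by MSU name, which also gives the chromosome. Named for their size alone, LOC_Os06g08320 on chromosome 6 was at 111 and 175 FPKM in OE15 and listed at 0 in both OE20 and both WT libraries, and LOC_Os10g30240 on chromosome 10 was at 12.4 and 17.6 FPKM in OE15 and likewise listed at 0 in the other 4. LOC_Os06g08210 was listed at 0 in both OE15 libraries and was at 9.39 and 7.74 FPKM in OE20 and 14.1 and 6.67 FPKM in WT. LOC_Os09g03200 was also listed at 0 in OE15, with 2.41 and 2.52 FPKM in OE20 and 4.02 and 1.70 FPKM in WT. Loci of this kind were few. Among all loci tested, 3 were above 0 in both OE15 libraries and listed at 0 in the other 4, the last being LOC_Os04g24770 (13.8 and 8.79 FPKM in OE15), and 4 were listed at 0 in both OE15 libraries and above 0 in the other 4, the others being LOC_Os03g25510 and LOC_Os07g38470, the last of which was also lower in OE20 than in WT. LOC_Os04g24770, LOC_Os03g25510 and LOC_Os07g38470 were chosen after their values were seen. An exact 0 in FPKM can be a failed estimate. At LOC_Os04g32710, chosen after its values were seen, one OE15 library was listed at 0 and the other at 5417 FPKM, with 0 in the other 4 libraries, and its OE15 change was not called (adjusted p = 0.236).

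Abundant loci were also found. Over 100 FPKM, 6 of the 185 loci were found, 5 higher and 1 lower in OE15, and those other than *RALFL26* were chosen after their values were seen. LOC_Os02g52730 on chromosome 2 was at 197 and 191 FPKM in OE15, 28.6 and 31.3 FPKM in OE20 and 27.2 and 28.6 FPKM in WT. OE15 alone was high, by 2.80 over WT (standard error 0.0534, adjusted p = 5.91e-07), while OE20 and WT did not differ by the test (0.10, adjusted p = 0.268). LOC_Os06g04230 was at 206 and 207 FPKM in OE15, 92.6 and 92.9 FPKM in OE20 and 73.4 and 71.1 FPKM in WT, a change of 1.51 in OE15 and 0.36 in OE20. LOC_Os09g10274 was at 257 and 265 FPKM in OE15, 157 and 156 FPKM in OE20 and 148 and 144 FPKM in WT (0.84 in OE15, 0.10 in OE20). The locus that fell was LOC_Os06g01590, at 136 and 143 FPKM in OE15, 209 and 219 FPKM in OE20 and 273 and 280.0 FPKM in WT (-0.99 in OE15, -0.37 in OE20). LOC_Os01g73940 rose in OE15, by 0.77 (219.8 and 231 FPKM), and had a change of -0.37 in OE20 (104 and 99.999 FPKM), with 136 and 128 FPKM in WT. Below 100 FPKM, LOC_Os01g73000, also chosen after its values were seen, showed the same pattern as LOC_Os02g52730, with 83.1 and 83.3 FPKM in OE15, 16.6 and 15.9 FPKM in OE20 and 16.1 and 17.0 FPKM in WT (2.32, adjusted p = 7.74e-07).

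The lines went in opposite directions at 7 loci, 3 lower and 4 higher in OE15, none of them annotated and each chosen after its values were seen. LOC_Os06g21140 was at 0.372 and 0.259 FPKM in OE15, 8.26 and 7.11 FPKM in OE20 and 1.07 and 1.04 FPKM in WT. LOC_Os07g27300 was at 15.7 and 14.2 FPKM in OE15, 2.59 and 2.47 FPKM in OE20 and 8.94 and 8.78 FPKM in WT. At both, WT stood between the lines. The other loci were LOC_Os01g01650 and LOC_Os07g44250, lower in OE15, and LOC_Os07g23410, LOC_Os07g23660 and LOC_Os08g42800, higher in OE15, all with less than 15 FPKM in every library.

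The 185 loci were spread over all 12 chromosomes, and no test of their placement was made. Chromosome 6 held 18 of the 83 lower loci, 1.06% of its 1706 tested loci beside 0.402% over all, and 8 of the higher ones. Chromosome 2 held 17 of the 102 higher loci, 0.701% of its 2425 tested loci beside 0.494% over all, and 1 of the lower ones. Chromosomes 10, 11 and 4 were close to it, with 0.665%, 0.646% and 0.618% of their loci. Some lay side by side, with 11 lower loci in 5 groups and 12 higher loci in 5 groups within 5 listed loci of each other. LOC_Os03g25280, LOC_Os03g25300 and LOC_Os03g25320 on chromosome 3, chosen after their values were seen, formed the largest lower group. LOC_Os03g25280 was at 56.8 and 57.9 FPKM in OE15, 102 and 98.1 FPKM in OE20 and 111 and 106 FPKM in WT, and the other 2 had changes of -0.92 and -1.28 in OE15. On chromosome 2, LOC_Os02g06754, LOC_Os02g06760, LOC_Os02g06770 and LOC_Os02g06779 had changes of 1.31, 0.65, 0.98 and 1.36 in OE15 and of 0.31, -0.28, 0.26 and -0.38 in OE20. These 4, also chosen after their values were seen, formed the largest higher group. *RALFL26* had a neighbour of the same kind, LOC_Os10g41999, chosen in the same way, at 10.8 and 11.9 FPKM in OE15, 5.66 and 6.90 FPKM in OE20 and 6.32 and 6.61 FPKM in WT. Whether neighbours share reads or overlap cannot be read from FPKM and was not tested.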

How the data were processed

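RNA of roots was sequenced as paired-end reads on an Illumina HiSeq instrument, with 2 libraries for each of OE15, OE20 and WT. The authors deposited 1 table of FPKM values per library, made, per the submitters' processing notes, with FastQC 0.11.8, Trimmomatic 0.38, HISAT2 2.1.0 and Cufflinks 2.2.1. The genome build, the annotation release, strand use and the handling of reads that map to several places are not given in the sources used here. FPKM is scaled to length and depth, so read totals, and the counting error of low values, are unknown.

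Each table held 55991 rows. Names that occurred more than once, 4 in all, were left out, and the tables were joined by MSU locus name. Loci averaging under 1 FPKM across all 6 libraries were dropped. log2(FPKM + 0.1) was fitted with limma 3.58.1 in R 4.3.3, with the 3 genotypes in 1 model (3 residual degrees of freedom, a prior of 4.02) and a mean-variance trend. P-values were two-sided and adjusted by Benjamini-Hochberg over the 20627 loci. A fold change on this scale understates the change of low loci. The script was tested on simulated data.

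Genes were named by rule: *OsMYB305*, the wall and nitrogen genes, the 10 annotated loci of largest change in each direction, the annotated loci furthest from OE20 (up to 10 in each direction, of which 7 lower ones were found), the 5 most abundant in each direction, the 2 largest and the 1 smallest change of each list, and 2 loci without annotation in each direction. Other loci are marked in the text. The members and lists were chosen with earlier results of these data known. Annotations came from the study's own selection of loci changed in both lines, whose fold changes were not used. The alternatives were other pseudocounts, filters, scalings, thresholds and fits, and leaving out each library. A count of promoter motifs was not run, since no promoter sequence was used here.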

Additional observations from a re-analysis of the deposited data

Results flagged for a closer look

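OE15 and OE20 differed from each other at 24 of the named loci by the test of that difference (limma, OE15 minus OE20 on the log2 scale). *OsMYB305*, which differed by 0.89, is not counted among the 24. OE15 was higher at LOC_Os06g15750 (1.60), LOC_Os06g14420 (1.14), LOC_Os06g29730 (1.14), LOC_Os04g33240 (1.01), LOC_Os10g36170 (0.96), LOC_Os03g04060 (0.91), LOC_Os09g25060 (0.81), LOC_Os08g37210 (0.80), LOC_Os01g35330 (0.73), LOC_Os10g41980 (0.72) and LOC_Os06g46950 (0.60). OE15 was lower at LOC_Os09g31031 (-1.29), LOC_Os02g08330 (-1.18), LOC_Os03g15370 (-0.83), LOC_Os03g57640 (-0.78), LOC_Os04g01690 (-0.71), LOC_Os04g08350 (-0.70) and LOC_Os09g15560 (-0.59). At LOC_Os10g18760 (0.87) and LOC_Os08g08960 (0.60) OE20 had the larger change from WT. At 4 loci without annotation a genotype was listed at 0, and the fitted difference depends on the pseudocount and is no bound: LOC_Os06g08320 (10.44) and LOC_Os10g30240 (7.22), at 0 in OE20, and LOC_Os06g08210 (-6.43) and LOC_Os09g03200 (-4.68), at 0 in OE15.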

How the results depend on the processing

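Against WT, 92 of 104 named genes other than *OsMYB305* kept their direction and side of the threshold in every alternative they could be tested in, which was all 15 for 72 and 14 for the 32 under a mean of 5 FPKM. Against OE20, 13 of 23 named differences, that of *OsMYB305* included, did and 10 lost their call under at least 1 alternative. LOC_Os10g18760 and LOC_Os08g08960, where OE20 had the larger change from WT, are not among the 23. A minimum mean of 5 FPKM gave 258 lower and 328 higher loci and 47 lower members of the annotated lists. In this section, loci moved further are those that meet the rule of the 185 loci, which does not compare distances from WT. With that minimum, 42 lower and 63 higher loci were moved further. Without a fold limit there were 2041 lower and 2176 higher loci, and 619 and 547 that OE15 moved further. At an adjusted p under 0.01, 50 and 66 were moved further. Leaving out 1 library in turn gave 399 to 525 lower and 437 to 649 higher loci, and 50 to 75 lower and 64 to 99 higher loci moved further. The change of *OsNIR2* ranged over -0.071 to 0.143 when 1 library was left out, with the sign turned only without WT replicate 1. The cause of these shifts was not tested, beyond the fewer loci or libraries in the fit. Replicate numbers did not pair the libraries, with correlations of deviations between -0.07 and 0.03, and the fit with a replicate block gave 533 lower and 584 higher loci, and 82 and 102 moved further. Precision is limited by 2 libraries a genotype and by unknown read totals.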
